A study of Mus musculus with 2 samples.

Results

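The 9 Sox genes described here are Sox4, Sox5, Sox6, Sox7, Sox9, Sox11, Sox12, Sox17 and Sox18, the Sox transcription factor genes with known roles in mesoderm and endothelium. They were found by their symbols in the deposited gene tables, where each symbol occurs in 1 of 27998 rows. Single-cell RNA was counted in droplets for 2 libraries of Swiss Webster mouse embryos at embryonic day 9.5 (E9.5), dissected to the pharyngeal apparatus and heart and sorted for GFP-positive, DAPI-negative cells. The library labelled Ctrl came from Mesp1Cre;Rosa26-GFPflox/+ embryos. The library labelled cKO came from Mesp1Cre;Rosa26-GFPflox/+;Tbx1flox/flox embryos, so both carry the Cre driver and the reporter, and Mesp1Cre acts in early mesoderm and its descendants, endothelium included, from gastrulation on. A pair of embryos was pooled for either library, which makes 1 sample per genotype with no replicate and no test. By the study's sample list the cKO embryos had more somites than the Ctrl embryos, so that genotype, embryo pair, somite stage and library cannot be told apart, nor can fewer transcripts of a gene per cell be told apart from a different mix of cells within a class. The comparison asks how the levels of these genes in each cell population differ when Tbx1 is inactivated in the Mesp1 lineage. All intervals below are 95% intervals and cover counting error only.

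Sox proteins bind DNA through a high mobility group box related to that of SRY and are sorted into groups by sequence. The SoxC genes Sox4, Sox11 and Sox12 are broadly expressed in embryonic progenitors and act with partial redundancy, Sox4 and Sox11 being required for outflow tract formation. The SoxD genes Sox5 and Sox6 lack a transactivation domain and act beside the SoxE gene Sox9 in chondrogenesis, Sox9 being the master regulator of cartilage and also a gene of the heart valve mesenchyme. The SoxF genes Sox7, Sox17 and Sox18 are endothelial and act in arterial and lymphatic specification.

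Sequence upstream of an annotated start was at hand in RefSeq (GRCm38.p6) for 5 of the 9 genes, Sox4, Sox5, Sox6, Sox11 and Sox12. The 3 SoxC promoters are shown because these genes were counted in every population and were lower together in the library labelled cKO, and that of Sox5 because its gene had a restricted pattern. Each line gives the 250 bases before the start on the strand of the gene, 5′ to 3′, with CpG dinucleotides in capitals.
Sox4, chr13:28953700-28953949, minus strand: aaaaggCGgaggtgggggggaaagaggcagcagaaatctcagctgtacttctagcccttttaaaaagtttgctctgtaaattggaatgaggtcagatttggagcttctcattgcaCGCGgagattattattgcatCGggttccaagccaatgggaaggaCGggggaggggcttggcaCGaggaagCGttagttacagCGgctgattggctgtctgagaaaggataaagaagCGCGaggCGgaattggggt
Sox11, chr12:27342719-27342968, minus strand: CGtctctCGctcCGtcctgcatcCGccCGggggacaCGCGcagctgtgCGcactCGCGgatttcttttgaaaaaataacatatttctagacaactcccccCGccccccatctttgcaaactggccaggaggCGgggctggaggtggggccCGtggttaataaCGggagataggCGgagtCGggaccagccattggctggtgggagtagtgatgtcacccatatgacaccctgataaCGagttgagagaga
Sox12, chr2:152398047-152398296, minus strand: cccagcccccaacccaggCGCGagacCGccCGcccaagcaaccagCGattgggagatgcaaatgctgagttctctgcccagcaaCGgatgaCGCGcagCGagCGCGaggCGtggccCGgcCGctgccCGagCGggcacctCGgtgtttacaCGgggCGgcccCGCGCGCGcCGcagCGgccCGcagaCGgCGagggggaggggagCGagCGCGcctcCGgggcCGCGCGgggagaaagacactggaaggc
Sox5, chr6:143947107-143947356, minus strand, before a start that lies inside the gene's full span: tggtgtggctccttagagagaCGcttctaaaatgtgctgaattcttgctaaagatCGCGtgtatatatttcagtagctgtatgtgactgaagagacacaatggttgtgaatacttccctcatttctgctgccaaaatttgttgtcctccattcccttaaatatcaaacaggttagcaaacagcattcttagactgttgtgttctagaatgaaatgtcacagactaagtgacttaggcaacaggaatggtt

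The 4 windows differ most in CpG content. Sox12 held 35 CpG dinucleotides, Sox11 17 and Sox4 11, against 3 in the Sox5 window and a median of 6.0 over all 32851 RefSeq promoters of this length. The T-box motif GGTGTGA, searched on both strands like the motifs that follow, was in none of these 4 windows and in 3.33% of all promoters. Among the 6 Sox6 promoters of the table it occurred in 1. The Sox motif ACAAAG was in none of the 4 windows and in 16.5% of all promoters. A related motif, ACAATG, overlaps neither of the others and was in the Sox5 window and in 10.7% of all promoters. These matches are letters in a window and not sites of binding.

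After filters and removal of presumed doublets, 6614 cells of the library labelled Ctrl and 9009 of the library labelled cKO remained, with medians of 16878 and 14212 unique molecular identifiers (UMIs) per cell, and 15 cell barcodes occurred in both libraries. Clustering without the Sox genes gave 26 clusters. Of these, 11 classes with at least 100 cells in each library were named from marker genes and are compared here, under names that end in -like. The markers were scored in cells of the library labelled Ctrl alone, and cells of that labelled cKO took the name of their cluster. MLP stands for multilineage primed progenitors, BrM for progenitors of branchiomeric muscle, CM for cardiomyocytes, SoM/aSHF for somatic mesoderm with the anterior, and pSHF for the posterior, part of the heart field that adds cells to both poles of the heart tube. The others are endothelium, sinus venosus, foregut mesenchyme, Hox lateral plate, sclerotome and dermomyotome. Clusters left unnamed held 23.7% and 27.8% of the cells. The names are rebuilt from these data, and a difference from the populations of the study may come from that. Tbx1 itself went against its label in MLP-like cells, at 52.4 CPM (UMIs of a gene per 1000000 UMIs of a class) in the library labelled Ctrl and 110 in that labelled cKO, and was at 121 and 94.2 in BrM-like cells. It was also higher in the library labelled cKO in sclerotome-like (4.03 against 14.3), foregut mesenchyme-like (9.77 against 20), SoM/aSHF-like (12.5 against 20.3) and sinus venosus-like cells (2.16 against 4.4). It was lower there in Hox lateral plate-like cells (4.51 against 2.59) and was at 8.08 and 5.48 in endothelium-like cells, where the interval of the log2 ratio spans 0, as it did in pSHF-like, CM-like and dermomyotome-like cells. Counts of 3′ reads per gene do not tell recombined Tbx1 transcripts from intact ones, so Tbx1 does not check the labels here and the libraries are named by their labels throughout. The cause of the Tbx1 differences was not tested. Over all genes tested the median log2 ratio of cKO over Ctrl lay between −0.12 and −0.08 in each class.

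Levels of the Sox genes, in CPM, showed 3 kinds of distribution. Sox4, Sox11 and Sox12 were counted at 10 CPM or more in all 11 classes of both libraries. Sox9 was graded, from 15.8 in CM-like to 367 in sclerotome-like cells of the library labelled Ctrl, and Sox5 and Sox6 were low with a similar set of leading classes. Sox7, Sox17 and Sox18 were endothelial. Between the libraries, Sox11 was lower in the library labelled cKO in every class (when the libraries were clustered without integration, SoM/aSHF-like cells were at a log2 ratio of 0.27 and MLP-like cells gave no value), while Sox9 was 3.3-fold lower in MLP-like and 1.49-fold higher in BrM-like cells. The positions of Sox9 (chr11:112782210-112787757), Sox7 (chr14:63943706-63950732), Sox17 (chr1:4490928-4497426) and Sox18 (chr2:181669837-181671640) are those of the RefSeq gene spans in GRCm38.p6, and reads were counted per gene and not per exon. Levels were read from 3′ tags and are compared between classes and libraries, not between genes.

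**Figure D1:**
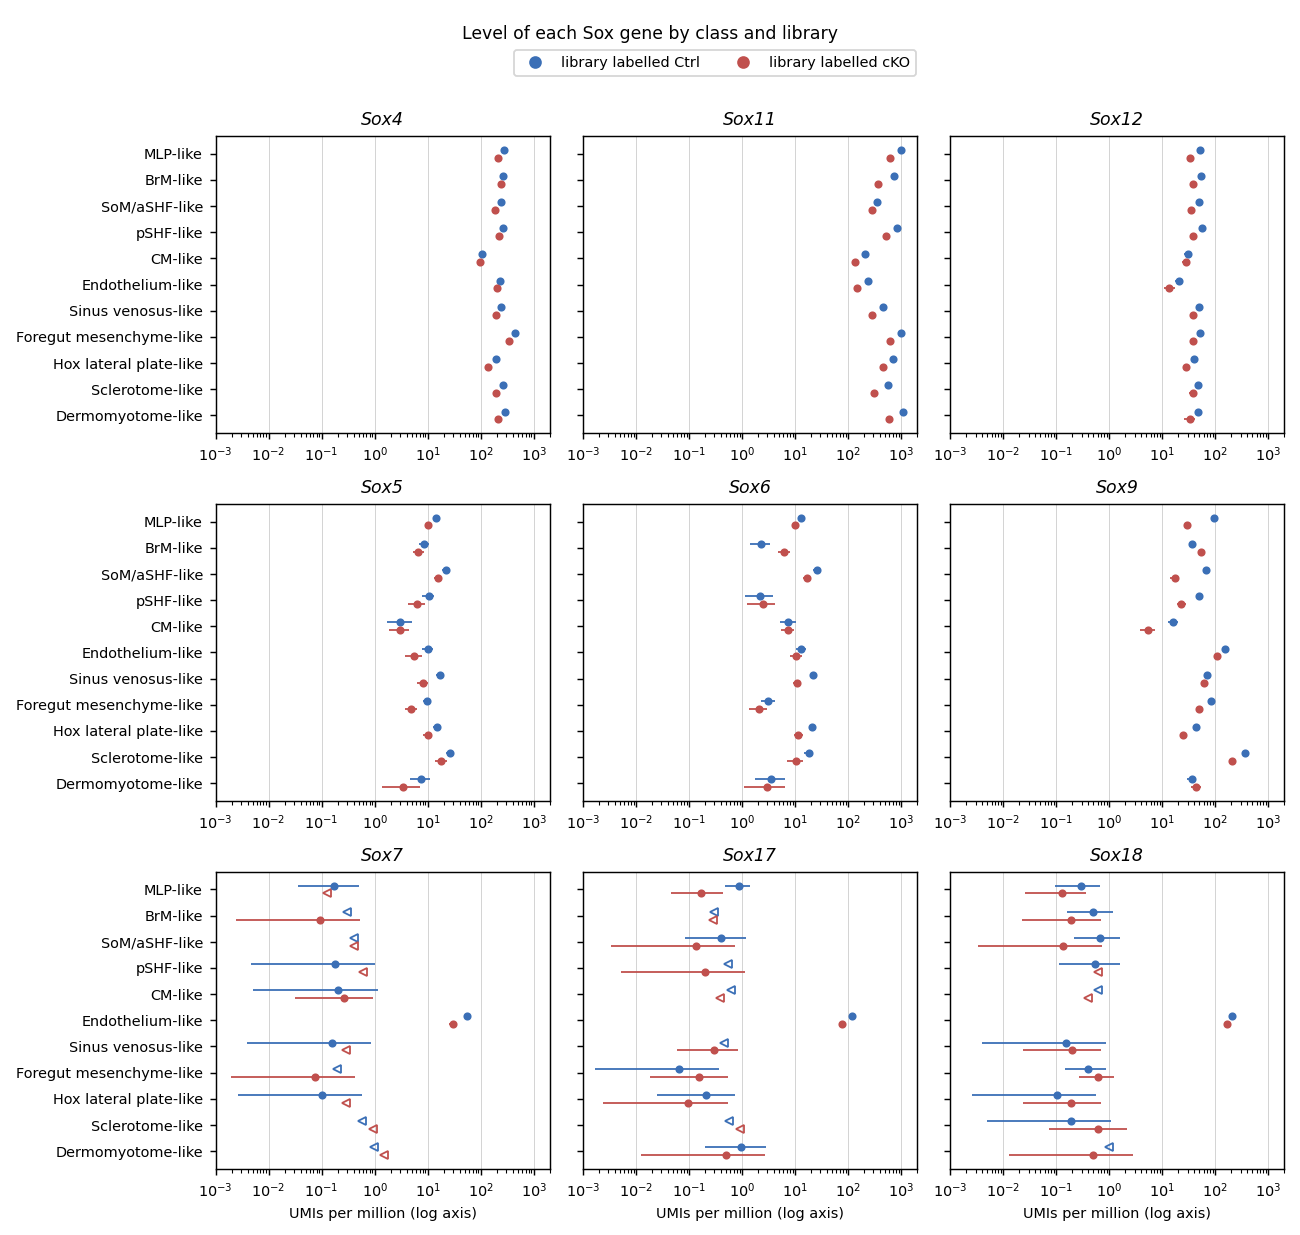
Level in CPM of each Sox gene (x axis, logarithmic) in 11 classes (y axis) of the library labelled Ctrl (blue) and the library labelled cKO (red), with 95% Poisson intervals of counting error as lines. Open triangles stand at 3 counts where no UMI was found. Sox4, Sox11 and Sox12 form narrow columns, Sox9 spreads from 5.31 to 367, and Sox7, Sox17 and Sox18 stand high in endothelium-like cells alone.

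Genes were compared where they reached 10 CPM in a library and 30 UMIs in all, a filter that Sox4, Sox9, Sox11 and Sox12 passed in 11 classes, Sox5 and Sox6 in 6 each, and Sox7, Sox17 and Sox18 in 1. These make 59 pairs of a gene and a class, of which 7 lay past 2-fold, all lower in the library labelled cKO. In MLP-like cells this was 1 of 6 Sox genes, Sox9, where 4.15% of all genes tested were past 2-fold. In BrM-like cells it was 1 of 4, Sox11, against 5.65% of all genes, and its log2 ratio of −1.03 was −0.93 in Y-positive cells, −0.98 without integration, −0.99 as a mean over cells and −0.91 with the median of the class subtracted. Sox9 was also the 1 past 2-fold among 6 in SoM/aSHF-like cells (2.96% of all genes), among 5 in pSHF-like cells (2.68%) and among 4 in CM-like cells (1.99%). In pSHF-like cells it was short of 2-fold with the median subtracted (−0.99) and with the classes of the first clustering, made before genes that differ between the libraries were left out (−0.97), and in CM-like cells with presumed doublets kept (−0.55). In sinus venosus-like cells Sox5 and Sox6 were past it among 6 (2.14%), though not within Xist-positive cells or at a lower clustering resolution (−0.94 and −0.93), nor Sox5 with presumed doublets kept (−0.96), nor Sox6 with the median subtracted (−0.93) or the classes of the first clustering (−0.92). Sox9 in MLP-like and SoM/aSHF-like cells stayed past 2-fold under each alternative that gave a value. None was past 2-fold of 8 in endothelium-like cells (2.2% of all genes), of 4 in foregut mesenchyme-like (1.21%), of 6 in Hox lateral plate-like (1.61%), of 6 in sclerotome-like (3.82%) or of 4 in dermomyotome-like cells (5.39%). Without regard to size, 57 of the 59 pairs were lower in the library labelled cKO, as were between 58.2% and 62.7% of all genes tested in a class. The 2 exceptions were Sox9 in BrM-like and in dermomyotome-like cells, and subtracting the median shift of a class added Sox4 in BrM-like cells (0.02).

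**Figure D2:**
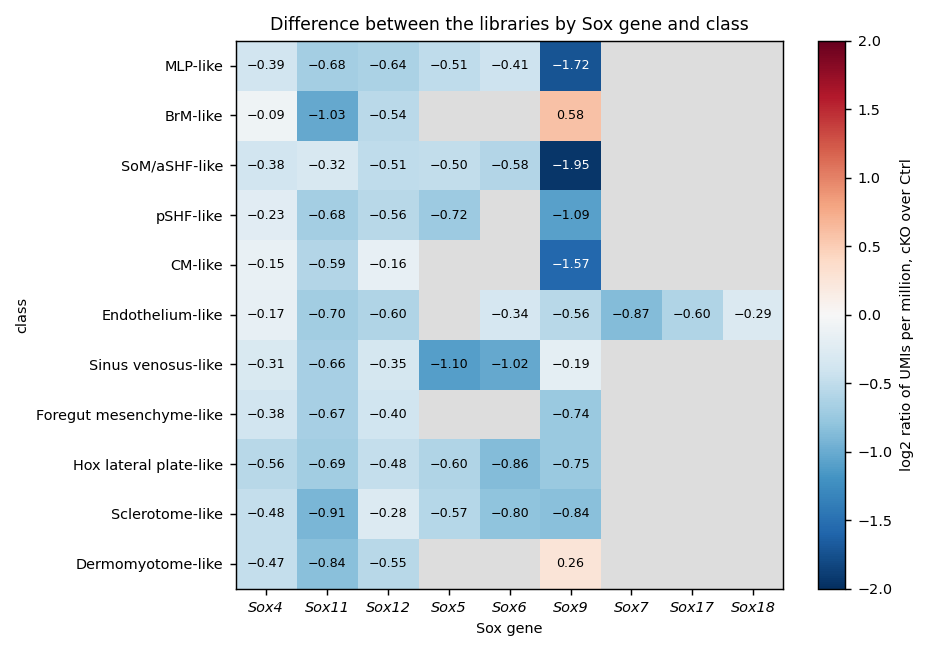
Log2 ratio of CPM, cKO over Ctrl, for each Sox gene (columns) in each class (rows), in blue where lower in the library labelled cKO and in red where higher, with grey for pairs under the filter on low counts. The Sox9 column runs from −1.95 in SoM/aSHF-like to 0.58 in BrM-like cells, while the Sox11 column is blue throughout, from −1.03 to −0.32.

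Sox11, the SoxC gene with the widest range, had 1066 CPM (1030 to 1103) in dermomyotome-like cells of the library labelled Ctrl, 996 in foregut mesenchyme-like and 994 in MLP-like cells. The latter 2 did not differ beyond their intervals, and pSHF-like cells followed at 821. Endothelium-like cells (235) and CM-like cells (204) were lowest. The order was similar in the library labelled cKO, with foregut mesenchyme-like (627), MLP-like (620) and dermomyotome-like cells (597) not separated by their intervals and CM-like cells lowest at 136.

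The largest difference of Sox11 between libraries was in BrM-like cells, where the library labelled Ctrl had 738 CPM (721 to 754) and that labelled cKO 362 (351 to 374). The log2 ratio was −1.03 (−1.08 to −0.97). This placed Sox11 among the lowest 3.91% of genes by ratio in that class. In the library labelled Ctrl the BrM-like interval overlapped that of Hox lateral plate-like cells (718), and in the library labelled cKO BrM-like cells lay below them (446). In sclerotome-like cells the level was 577 against 307 (−0.91), in dermomyotome-like cells 1066 against 597 (−0.84) and in MLP-like cells 994 against 620 (−0.68). The smallest difference was in SoM/aSHF-like cells, 357 against 286 (−0.32). Over the 23 single clusters that passed the filter, Sox11 was lower in all 23.

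Sox4 was even across classes, with a step at each end. Foregut mesenchyme-like cells had the highest level, 444 CPM (433 to 455) in the library labelled Ctrl and 340 (330 to 350) in that labelled cKO, and CM-like cells the lowest, 106 and 95.4. In the library labelled Ctrl the 8 classes from dermomyotome-like (286) down to endothelium-like cells (226) each overlapped their neighbour in rank. Sox4 was lower in the library labelled cKO in 11 of 11 classes, with log2 ratios from −0.56 in Hox lateral plate-like to −0.09 in BrM-like cells, and the interval reached 0 in CM-like cells. In MLP-like cells the level was 271 against 208 (−0.39). The BrM-like value, 258 against 242, is within the median shift of all genes in that class, and became 0.02 once that shift was subtracted. Between clusters, Sox4 was higher in the library labelled cKO in the endothelium-like cluster led by Gngt2, Klf2 and Eng, at 230 against 276 (0.26, 0.09 to 0.44), and lower in the other endothelium-like cluster, at 224 against 159.

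Sox12 was the most even of the SoxC genes. Its level in the library labelled Ctrl lay between 39.0 and 56.4 CPM in 9 classes, whose neighbours in rank all overlapped, followed by CM-like cells at 30.8, which overlapped the lowest of them, and by endothelium-like cells at 20.5, which overlapped none. The same 9 classes ran from 27.9 to 38.3 in the library labelled cKO, where CM-like cells had 27.5 and endothelium-like cells 13.5. The ratio of highest to lowest class was 2.75 and 2.83, against 5.22 and 4.61 for Sox11. All 11 classes were lower in the library labelled cKO, by a log2 ratio between −0.64 in MLP-like cells (52.1 against 33.5) and −0.16 in CM-like cells, and the intervals of CM-like and sclerotome-like cells reached 0. Of 23 clusters, the exceptions were a CM-like cluster led by Tdgf1 and Myh7 (31.9 against 36.6) and another led by Myl2 (18.4 against 27.4), where both intervals of the ratio span 0.

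Sox5 led, among the named classes, in sclerotome-like cells, at 26.7 CPM (22.4 to 31.5) in the library labelled Ctrl and 17.9 (13.7 to 23.1) in that labelled cKO, followed by SoM/aSHF-like cells at 22.0 and 15.5, with overlapping intervals. CM-like cells had the lowest level, 3.04 and 2.98. The largest difference between libraries among classes past the filter was in sinus venosus-like cells, 17.1 against 8.01, a log2 ratio of −1.10 (−1.53 to −0.67) from 111 and 82 UMIs. The mix of sexes in this class differed between the libraries, with 114 Xist-positive and 223 Y-positive cells in that labelled Ctrl and 554 and 119 in that labelled cKO. Within Xist-positive cells Sox5 was at 16.4 and 8.88 CPM (−0.89, −1.51 to −0.24), and within Y-positive cells at 18.3 and 1.91 (−3.26, −5.57 to −1.65), the latter from 65 and 3 UMIs. MLP-like cells were at 14.3 and 10.0 (−0.51). In all 6 classes and 15 clusters past the filter Sox5 was lower in the library labelled cKO. The 250 bases before the Sox5 start shown above belong to a gene that reached 10 CPM in 6 of 11 classes of the library labelled Ctrl and 3 of that labelled cKO, those of the SoxC genes to genes that did so in all 11 of both. Sox6 also reached 10 CPM in 6 classes of the library labelled Ctrl, and its windows held from 1 to 10 CpG dinucleotides. A link between window and pattern was not tested.

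Of the named classes, Sox6 was highest in SoM/aSHF-like cells, 25.5 CPM (22.0 to 29.4) against 17.0 (14.2 to 20.2), then in sinus venosus-like (22.2 against 10.9), Hox lateral plate-like (21.0 against 11.6) and sclerotome-like cells (18.0 against 10.3). Neighbours among these 4 overlapped in the library labelled Ctrl. The sinus venosus-like log2 ratio was −1.02 (−1.39 to −0.66). It was −0.46 (−1.05 to 0.16) within Xist-positive and −2.14 (−3.32 to −1.15) within Y-positive cells of that class, so that neither SoxD gene was past 2-fold in Xist-positive cells. Sox6 went the other way in BrM-like cells, with 2.27 CPM (1.44 to 3.4) in the library labelled Ctrl and 6.17 (4.76 to 7.86) in that labelled cKO. The log2 ratio was 1.45 (0.74 to 2.20). That value rests on 23 and 65 UMIs, below the filter of 10 CPM. In MLP-like cells Sox6 was at 13.2 and 9.96, a log2 ratio of −0.41 (−0.68 to −0.14). The MLP-like clusters were not alike, with log2 ratios of −0.63 (−0.97 to −0.29) in that led by Prdm1, Irx2 and Irx1, −0.30 (−0.94 to 0.34) in that led by Prdm1, Rdh10 and Fgf8, and 0.17 (−0.50 to 0.87) in that led by Rdh10, Prdm1 and Grem1. Within Y-positive MLP-like cells the interval included 0 (−0.21, −0.65 to 0.24).

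Sox9 showed its highest level of any named class in sclerotome-like cells, the precursors of the vertebral cartilage, with 367 CPM (351 to 384) in the library labelled Ctrl and 205 (189 to 221) in that labelled cKO. Endothelium-like cells followed in both libraries, at 155 and 105. Next in the library labelled Ctrl were MLP-like (94.3) and foregut mesenchyme-like cells (83.3). In that labelled cKO sinus venosus-like (61.8), BrM-like (53.9), foregut mesenchyme-like (49.7) and dermomyotome-like cells (42.6), whose neighbours overlapped, came before MLP-like cells (28.6). The first 5 classes of the library labelled Ctrl were each apart from their neighbour by their intervals, sinus venosus-like cells (70.6) being the last of them. Among unnamed clusters, those led by Lhx9 and Itga4 (501 against 391), by Tagln, Lum and Foxd1 (371 against 254) and by Crym, Fst and Ebf2 (266 against 135) also carried much Sox9. CM-like cells were lowest, at 15.8 and 5.31.

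In MLP-like cells, Sox9 had 1625 UMIs in 1006 cells of the library labelled Ctrl, or 94.3 CPM (89.8 to 99.0), and 677 UMIs in 1445 cells of the library labelled cKO, or 28.6 (26.5 to 30.8). The log2 ratio was −1.72 (−1.85 to −1.59), which 0.946% of the 7720 genes tested fell below. The decrease was present in each of the 3 MLP-like clusters. The cluster led by Prdm1, Irx2 and Irx1 went from 103 to 29.6, that led by Prdm1, Rdh10 and Fgf8 from 94.8 to 25.7, and that led by Rdh10, Prdm1 and Grem1 from 59.9 to 28.6. The last of these lay below the other two in the library labelled Ctrl, and the intervals of all 3 overlapped in that labelled cKO. Without integration of the libraries, MLP-like clusters held 551 cells of the library labelled Ctrl and 5 of that labelled cKO, so that no ratio could be had.

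In BrM-like cells, Sox9 had 367 UMIs in 528 cells of the library labelled Ctrl, 36.2 CPM (32.5 to 40.0), and 568 UMIs in 703 cells of the library labelled cKO, 53.9 (49.6 to 58.5). The log2 ratio was 0.58 (0.38 to 0.77), above that of 95.9% of 7650 genes. MLP-like cells exceeded BrM-like cells in the library labelled Ctrl and were below them in that labelled cKO, and the log2 ratio in MLP-like minus that in BrM-like cells was −2.30 (approximate interval −2.53 to −2.07). This Sox9 contrast was known from earlier results of these data when the genes were chosen, so its interval is a description. Cells of either sex, split within each library by Xist and Y-linked UMIs, gave the same directions, −1.66 and −1.93 in MLP-like and 0.45 and 0.93 in BrM-like cells. The MLP-like minus BrM-like difference was 0.35 (0.28 to 0.41) for Sox11, whose ratio was the lower one in BrM-like cells, and −0.29 (−0.39 to −0.20) for Sox4. Those of Sox5 and Sox12 had intervals that include 0, −0.15 (−0.67 to 0.38) and −0.10 (−0.33 to 0.13).

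**Figure D3:**
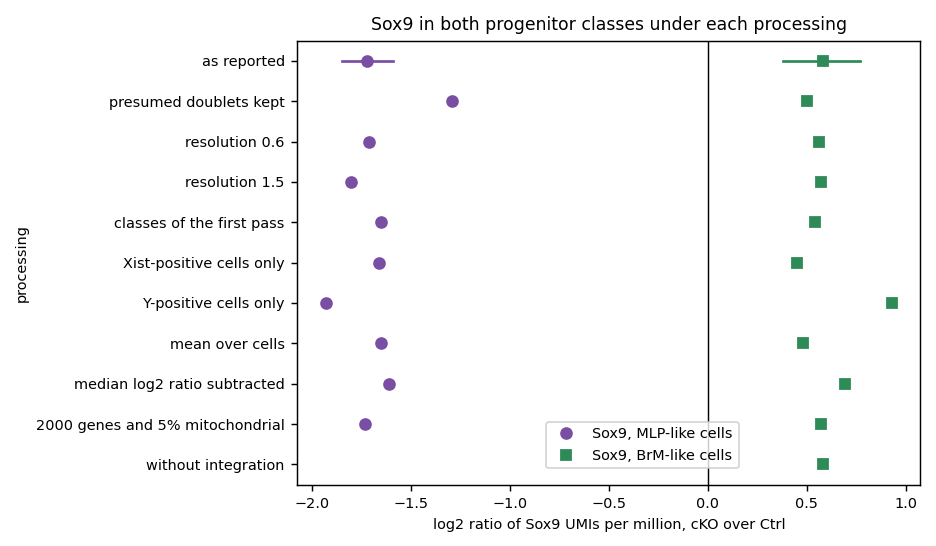
Log2 ratio of Sox9 CPM, cKO over Ctrl (x axis), in MLP-like (purple circles) and BrM-like cells (green squares) under each processing (y axis), with the 95% counting interval for the values as reported. All MLP-like values lie between −1.93 and −1.29 and all BrM-like values between 0.45 and 0.93, and no MLP-like value was available without integration of the libraries.

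Shares of cells with a Sox9 UMI moved the same way. At 5000 UMIs per cell, 28.5% of MLP-like cells of the library labelled Ctrl had a Sox9 UMI (25.7 to 31.4, 999 cells, 7 shallower ones left out) and 12.9% of those labelled cKO (11.2 to 14.8, 1438 cells, 7 left out). In BrM-like cells the shares were 13.1% (10.4 to 16.3) and 19.3% (16.4 to 22.4), with 3 cells left out in each. Without thinning the values were 56.1% and 30.4% in MLP-like and 31.8% and 43.1% in BrM-like cells. CM-like cells, the class with the lowest Sox9 level, were at 5.20% and 2.14% after thinning and at 10.7% and 5.74% before it, with median depths of 16709 and 15080 against 15450 and 15137 in MLP-like cells. These shares are no pure background, since 1 of the CM-like clusters carried Sox9 at 46.3 and 12.9 CPM. Without thinning, cells with at least 3 Sox9 UMIs made up 21.8% and 3.88% of MLP-like cells, and 9.09% and 9.1% of BrM-like cells, whose median depths were 18488 and 14129 UMIs.

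**Figure D4:**
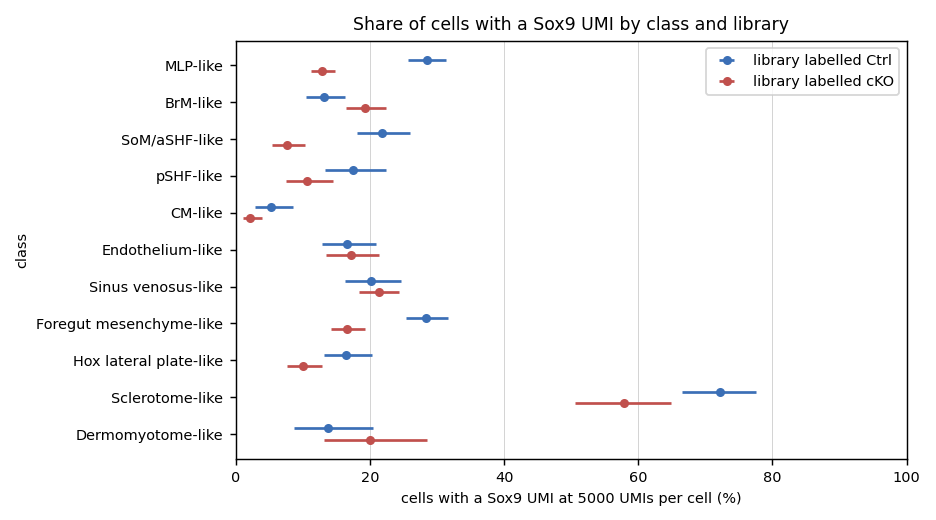
Share of cells with a Sox9 UMI after each cell was thinned to 5000 UMIs (x axis, percent) in each class (y axis) of the library labelled Ctrl (blue) and labelled cKO (red), with 95% Clopper-Pearson intervals. Shares are lower in the library labelled cKO in MLP-like cells (28.5% against 12.9%) and higher in BrM-like cells (13.1% against 19.3%), and sclerotome-like cells stand highest in both.

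Other progenitor and mesenchymal classes went with the MLP-like direction for Sox9. SoM/aSHF-like cells had 65.6 CPM (59.9 to 71.7) against 17.0 (14.2 to 20.2), a log2 ratio of −1.95 (−2.24 to −1.66) that 0.155% of genes fell below. In pSHF-like cells the level was 48.7 against 22.9 (−1.09) and in CM-like cells 15.8 against 5.31 (−1.57). The CM-like difference lay in the cluster led by Tdgf1, Myh7 and Ankrd1, at 46.3 against 12.9, since the other CM-like clusters were below 5 CPM in both libraries. Foregut mesenchyme-like (83.3 against 49.7, −0.74), Hox lateral plate-like (42.2 against 25.0, −0.75) and sclerotome-like cells (−0.84) were intermediate. Sinus venosus-like cells differed little, 70.6 against 61.8 (−0.19, −0.37 to −0.01), and dermomyotome-like cells were at 35.7 and 42.6 with an interval that includes 0 (0.26, −0.17 to 0.68).

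Neural crest and epithelium are cell types outside the sorted lineage in which Sox9 is known. The levels of 8 neural crest markers summed to 0.987 and 6.75 CPM in MLP-like cells, where Sox9 was lower in the library labelled cKO, and to 8.18 and 4.46 in BrM-like cells, where Sox9 was higher. Over all classes these sums ran from 0.182 to 8.18 (Ctrl) or 0.153 to 6.75 (cKO). Sox10, the defining neural crest Sox gene, had no UMI in 7 of 11 classes of the library labelled Ctrl and at most 0.338 CPM in any class. The 8 epithelial markers summed to 71.6 and 60.2 CPM in MLP-like and to 27.8 and 30 in BrM-like cells, where Krt18 led, and ranged from 10.7 to 316 (Ctrl) or 11.9 to 472 (cKO) over all classes. In MLP-like cells the 7 epithelial markers other than Krt18 were lower together with Sox9, at 44.6 and 25.5, those that reached 5 CPM went from 5 to 2 with Krt18 included, and Cldn6 and Foxa2 were at 0 in the library labelled cKO. The same 7 were at 19.9 and 11.4 in BrM-like cells. Krt18 itself went the opposite way to those 7, at 27.0 (Ctrl) and 34.8 (cKO) in MLP-like and 7.88 and 18.6 in BrM-like cells. In SoM/aSHF-like cells, where Sox9 was lower in the library labelled cKO, all 8 epithelial markers summed to 316 and 472, with the epithelial cadherin gene Cdh1 at 0 in both libraries. The part of either cell type in the Sox9 values was not tested.

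In sclerotome-like cells, a list of 21 genes of the chondrogenic programme around Sox5, Sox6 and Sox9 was examined, of which 20 were in the files and 8 passed the filter. None of the 8 was past 2-fold in either direction, where 3.82% of all genes were, so that the count says nothing particular about the list. Their median log2 ratio was −0.27 beside −0.09 over all genes tested in that class. Wwp2, a ubiquitin ligase gene that is a known Sox9 target, was at 13.1 and 6.99 CPM (−0.90). Col2a1, the cartilage collagen gene and classical Sox9 target, was at 80.2 and 44.1 (−0.86), close to the ratio of Sox9 itself. Pax9, a sclerotome transcription factor gene, was at 56.6 and 38.6 (−0.55), and Hapln1, a cartilage link protein gene, at 9.02 and 12.2 with an interval that spans 0. Within sclerotome-like cells thinned to 10000 UMIs (257 and 183 cells), Sox5 UMIs were found in 21.7% of cells with a Sox9 UMI (16.5 to 27.6) and in 3.23% of cells without (0.0816 to 16.7) in the library labelled Ctrl. In the library labelled cKO these shares were 15.2% (9.51 to 22.4) and 5.88% (1.23 to 16.2), and in both libraries the intervals overlap.

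Among the named classes the SoxF genes were almost exclusive to endothelium-like cells. Sox18 had 202 CPM (191 to 213) in the library labelled Ctrl and 164 (154 to 175) in that labelled cKO, and 0.318 and 0.225 over the other 10 classes together. Sox17 had 116 (108 to 125) and 76.5 (69.4 to 84.2), and 0.283 and 0.139 elsewhere. Sox7 had 54.3 (48.7 to 60.3) and 29.6 (25.2 to 34.5), and 0.0825 and 0.0428 elsewhere. Endothelium-like cells were between 410 and 731 times as high as those 10 classes. Unnamed clusters are not among them, and that led by Tagln, Lum and Foxd1 had Sox18 at 5.47 and 6.42 CPM, from 16 and 40 UMIs. Of the 15 Sox17 UMIs in MLP-like cells of the library labelled Ctrl, 8 came from a single cell.

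All 3 SoxF genes were lower in endothelium-like cells of the library labelled cKO. The log2 ratio was −0.87 (−1.15 to −0.60) for Sox7, from 349 and 162 UMIs, −0.60 (−0.78 to −0.43) for Sox17, from 746 and 419 UMIs, and −0.29 (−0.42 to −0.17) for Sox18, from 1297 and 900 UMIs. In the same class Sox11 was at −0.70, Sox12 at −0.60 and Sox4 at −0.17, so that Sox17 and Sox18 lay within the range of the SoxC genes and Sox7 below it. By rank among 7789 genes, 3.13% had a lower ratio than Sox7, 11.3% than Sox17 and 31.7% than Sox18. The epithelial markers summed to 10.7 and 11.9 CPM in these cells. The 8 neural crest markers summed to 6.06 and 2.56, lower in the library labelled cKO like the SoxF genes, with Sox10 at 0 in both libraries, and their part in the SoxF values was not tested.

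The class consisted of 2 clusters with unlike levels of Sox genes, which had been kept out of the clustering. The cluster led by Cldn5, Emcn and Lmo2 (228 and 235 cells) had 170 CPM of Sox17 (157 to 183) in the library labelled Ctrl and 103 (92.3 to 114) in that labelled cKO, a log2 ratio of −0.73. The cluster led by Gngt2, Klf2 and Eng (138 and 149 cells), whose leading genes also held Hapln1 and Nfatc1, had 27.9 and 29.3. Sox18 was at 258 and 218 in the former and at 108 and 66.8 in the latter. Sox7 was at overlapping levels in both, 56.3 and 50.9 in the library labelled Ctrl and 31.5 and 26.2 in that labelled cKO. Sox9 had the opposite order to Sox17, at 10.8 in both libraries in the former and at 392 (367 to 418) and 275 (253 to 300) in the latter, beside 367 and 205 in sclerotome-like cells. Hence the endothelium-like Sox9 level came from the cluster with little Sox17, and Sox5 followed it, at 25.1 and 14.9 in that cluster against 0.750 and 0.283.

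**Figure D5:**
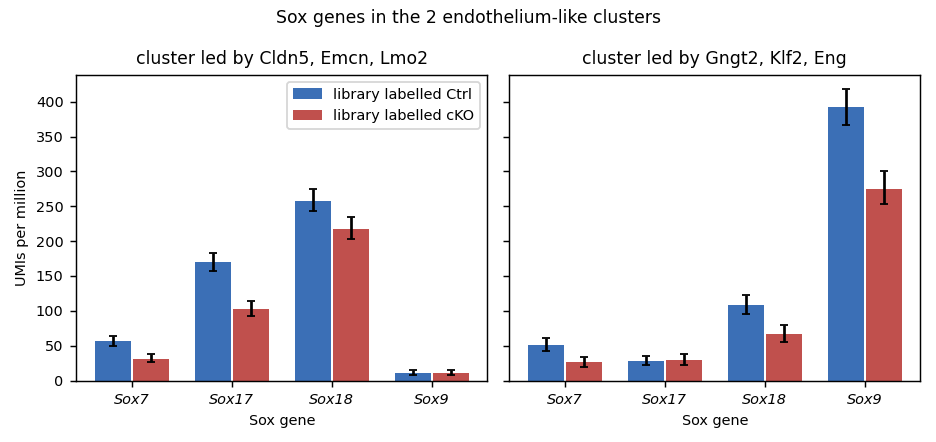
Level in CPM (y axis) of Sox7, Sox17, Sox18 and Sox9 in the endothelium-like cluster led by Cldn5, Emcn and Lmo2 (left) and in that led by Gngt2, Klf2 and Eng (right), as bars for the library labelled Ctrl (blue) and labelled cKO (red) with 95% Poisson intervals. Sox17 falls from 170 to 103 on the left and stays at 27.9 and 29.3 on the right, where Sox9 reaches 392 and 275.

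After thinning to 5000 UMIs, 56.8% of endothelium-like cells of the library labelled Ctrl had a Sox18 UMI (51.5 to 62.0) and 46.5% of those labelled cKO (41.3 to 51.7), with 5 and 12 shallower cells left out. The shares were 32.7% (27.9 to 37.8) and 25.8% (21.4 to 30.6) for Sox17 and 21.9% (17.7 to 26.5) and 15.1% (11.6 to 19.1) for Sox7. Without thinning they were 79.8% and 71.6%, 53.8% and 42.7%, and 51.1% and 29.9%, at median depths of 16457 and 13785 UMIs. CM-like cells, which should lack all 3 genes, had none at that thinning among 269 and 468 cells, which allows shares of up to 1.12% and 0.641% of cells with a UMI at that depth. This limits detection and not expression, and without thinning Sox7 was found in 0.368% and 0.213% of CM-like cells.

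Among cells that held 10000 UMIs or more and were thinned to that depth, all 3 SoxF genes were seen in 16.0% of 332 cells of the library labelled Ctrl (12.2 to 20.4) and in 8.52% of 317 cells of that labelled cKO (5.69 to 12.2), and none in 13.0% and 20.2%. Sox17 was seen in 50.2% of cells with a Sox18 UMI (43.8 to 56.6) and in 21.7% of cells without (13.4 to 32.1) in the library labelled Ctrl. In the library labelled cKO these shares were 45.2% (38.4 to 52.2) and 23.4% (15.7 to 32.5). Sox7 was seen in cells with and without a Sox18 UMI at overlapping shares, 39.0% and 36.1% in the library labelled Ctrl and 25.2% and 23.4% in that labelled cKO. These counts pool the 2 clusters described above.

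The Sox17 difference was not alike in cells split by sex, and this was not tested. Cells with Xist and no Y-linked UMIs had 155 CPM of Sox17 (142 to 170) in the library labelled Ctrl and 75.5 (65.4 to 86.8) in that labelled cKO, a log2 ratio of −1.04. Cells with Y-linked and no Xist UMIs had 82.6 (72.6 to 93.5) and 77.6 (66.6 to 90), a ratio of −0.09 (−0.38 to 0.20). Since a pair of embryos made each library, sex and embryo cannot be told apart here. Sox9 in the same cells was lower in both, at 147 against 94.2 and at 168 against 124.

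Of a list of 26 endothelial genes around the SoxF factors, 25 passed the filter in endothelium-like cells, 2 of them were past 2-fold and lower in the library labelled cKO, and none was higher by that amount, where 1.73% of all genes tested in the class were lower and 0.462% higher by as much. The median log2 ratio of the 25 was −0.44, beside −0.10 over all genes tested in the class. Efnb2, the ephrin gene of arterial endothelium, was at 95.5 and 41.6 CPM (−1.20, −1.42 to −0.98). Hey1, a transcriptional repressor gene downstream of Notch, was at 50.7 and 24.5 (−1.05, −1.35 to −0.76). Notch1, a receptor gene of the same pathway, followed at 124 and 66.1 (−0.91), and Fli1, an ETS factor gene of endothelium, at 174 and 101 (−0.78).

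The genes whose levels over 23 clusters in both libraries (46 points that share libraries and depth) were most like those of a Sox gene are given as a description, by Pearson correlation of log2(CPM + 10) among 4930 genes. For Sox17 these were Stab1 (r = 0.992), Ctla2b, Gimap6, Myct1 and Tal1 (0.985), where the points of the 2 endothelium-like clusters stand apart from the rest. For Sox11 they were Zfp422 (0.955), Tra2a, Cbx1, Pde7a and Zik1 (0.919). For Sox9 they were Lmo4 (0.819), Rap2b, Klf3, Mycbp2 and Golim4 (0.748). For Sox5 the nearest gene was Sox9 itself (0.744), before Phldb2, Tmem39a, Ext1 and Golim4 (0.705).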

How the data were processed

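Per the labels, 3′ libraries of the sorted cells were made on a 10x droplet system. The authors deposited filtered tables of UMI counts per gene and cell, not normalized, and the submitters' processing notes name Cell Ranger 3.1.0 and mm10. The library labelled Ctrl held 7418 cells and 132017331 UMIs, that labelled cKO 10281 cells and 162874391 UMIs.

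Cells with under 1000 genes or over 10% mitochondrial UMIs (411 and 508) were left out, as were the cells with the highest Scrublet scores (scanpy 1.11.5), at 0.8% per 1000 cells, 393 and 764. The automatic threshold marked 0% and 7.81%. Cells were clustered in Seurat 5.3.0 (R 4.3.3) with reciprocal PCA, 2000 variable genes, 30 dimensions and resolution 1. In a repeat pass 1231 genes that differed between the libraries were left out, and the Sox genes were kept out of both passes. Names required at least 3 listed markers, and their thresholds were set after the clusters were seen. In 1 SoM/aSHF-like cluster the leading genes held 1 marker of its own (Msx2) and 1 of epicardium (Lrrn4).

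Counts were summed per class and library and scaled to 1000000 (CPM). Genes with at least 10 CPM in a library and 30 UMIs in all were compared. Intervals are exact Poisson (levels), exact conditional (ratios) or Clopper-Pearson (shares), at 95%, and cover counting error only. A count of 0 was read as up to 3 counts. The ratios and their intervals were tested on simulated Poisson counts, which follow the same counting error and hold no spread between embryos, libraries or cells. With 1 library per group no test was run. The Sox genes named are the 9 members, with the 4 genes of each list and the 5 genes of each pattern that lay farthest or nearest, and the members and lists were chosen with earlier results of these data known. Promoters are from RefSeq (GRCm38.p6) and motifs were searched on both strands. A marker result is not reported here. Alternatives were other clusterings, filters, thinning depths, sexes and scalings. Versions of the other tools were numpy 2.4.6, scipy 1.17.1, pandas 2.3.3 and matplotlib 3.10.9.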

Additional observations from a re-analysis of the deposited data

Results flagged for a closer look

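Sox9 and Sox6 went opposite ways in the MLP-like and BrM-like progenitors. The log2 ratio of Sox9, cKO over Ctrl, was −1.72 in MLP-like and 0.58 in BrM-like cells. That of Sox6 was −0.41 in MLP-like cells and 1.45 in BrM-like cells, the latter from 23 and 65 UMIs and below the filter of 10 CPM. For Sox6 the opposite direction did not hold throughout the MLP-like class: 1 of its 3 clusters was at 0.17 (−0.50 to 0.87). The intervals of the cluster led by Prdm1, Rdh10 and Fgf8 (−0.30, −0.94 to 0.34) and of Y-positive MLP-like cells (−0.21, −0.65 to 0.24) also included 0. The Sox9 contrast was known from earlier results of these data when the genes were chosen. With 1 library per group the difference between the classes was not tested.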

How the results depend on the processing

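No paired analysis was possible because each group has 1 library and no test was run. In MLP-like cells the Sox9 log2 ratio was −1.29 with presumed doublets kept and −1.93 in Y-positive cells, and between −1.80 and −1.61 under the other alternatives run. Without integration it has no value, since the MLP-like cells were then almost all of the library labelled Ctrl. In BrM-like cells it was 0.93 in Y-positive cells and otherwise between 0.45 and 0.69. The Sox17 ratio in endothelium-like cells was −1.04 in Xist-positive cells, −0.09 in Y-positive cells and −0.32 in cells gated on endothelium markers, and otherwise between −0.72 and −0.50. Shares rose with depth: for Sox9 in MLP-like cells to 45.1% (Ctrl) and 21.8% (cKO) at 10000 UMIs and to 56.1% and 30.4% without thinning, in BrM-like cells to 22.0% and 34.9%, then 31.8% and 43.1%, and for Sox17 in endothelium-like cells to 43.1% and 37.9%, then 53.8% and 42.7%. By 2 counts chosen after seeing the data, 5 of 9 Sox genes had the same highest class in Y-positive cells, against 6 to 9 otherwise, and 4 pairs were past 2-fold after the median was subtracted, against 7 as reported and 5 to 8 otherwise. Where the reported interval excluded 0, the sign changed for Sox4 in BrM-like cells with the median subtracted (0.02), Sox9 in sinus venosus-like cells that were Xist-positive (0.07) and Sox11 in SoM/aSHF-like cells without integration (0.27). Of 529 other values over 56 pairs of gene and class, 524 kept their direction and 457 stayed within the interval of the reported value. Where a value differed, the cause was not tested. Low counts limit Sox5 and Sox6 in most classes and the SoxF genes outside endothelium.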

Other observations

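Of 10 Sox genes outside the 9 described, only Sox13, a SoxD gene, reached 5 CPM in a class. Sox13 was highest in BrM-like cells, at 21.2 (18.4 to 24.2) in the library labelled Ctrl and 15.9 (13.5 to 18.4) in that labelled cKO. In MLP-like cells Sox13 was at 13.1 and 7.6 (log2 ratio −0.79, −1.08 to −0.50), and in endothelium-like cells at 13.2 and 5.11 (−1.37, −2.04 to −0.74). Sox2, the pluripotency and foregut gene, reached at most 4.53, in BrM-like cells.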
